A study of Homo sapiens with 6 samples.

Results

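The EZH2 peak lists of ACHN cells, a human renal carcinoma line, were compared between cells with ZCCHC8 knocked out (KO) and cells with ZCCHC8 intact (WT). All peaks of the WT and the KO EZH2 list on chromosomes 1 to 22 and X were taken, and peaks listed on several identical lines were counted once. This gave 30732 WT and 19547 KO peaks, together 50279 of the 213202 peaks in the 4 lists of the series. Chromatin immunoprecipitation and sequencing was done with 2 antibodies, against EZH2 and against the histone mark H3K27me3, and the series has 6 samples including 1 input per genotype, which served the lists of both antibodies. WT is the genotype labelled ZCCHC8-WT (control, Ctrl) and KO the genotype labelled ZCCHC8-KO (sgZ8). Nothing used here says whether the KO cells are 1 clone or a pool, and a peak list cannot show the loss of ZCCHC8 protein or RNA. There was 1 library per genotype and antibody, so every difference below is a description of these libraries, with no replicate check and no test. How far lists from repeated libraries of the same genotype would differ was not measured. Read depths are not stated in the sources used, so a smaller number of sequenced reads and less EZH2 on chromatin cannot be told apart. Intervals are exact 95% Clopper-Pearson intervals for shares, or exact intervals for ratios of 2 numbers, and cover counting error only.

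EZH2 is the methyltransferase of the Polycomb complex PRC2, which methylates lysine 27 of histone H3. PRC2 is best known for occupying broad stretches of CpG-rich chromatin around silent developmental genes, where many neighbouring sites are bound, and for keeping the programmes of other tissues off in a differentiated cell. ZCCHC8 is the scaffold of the NEXT complex, which brings short-lived nuclear RNAs to the RNA exosome for decay. The series asks how NEXT relates to H3K27me3 in tumour cells.

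A peak was called clustered when it belonged to a run of 3 or more peaks of its list whose first start and last end lay within 10 kb. A cluster is the union of such runs. A peak with no other peak of its list within 10 kb was called isolated, and all others sparse. A WT cluster that overlapped a KO cluster by at least 1 bp is called kept, a WT cluster that did not is called lost, and a KO cluster that overlapped no WT cluster is called gained. A protein-coding gene was counted at a cluster when the cluster reached into the 5 kb on either side of a gene end. These names say where peaks were listed, and do not show that EZH2 left or arrived.

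The promoters of 6 genes are given as examples of sequence under EZH2 peaks at kept, lost and gained genes, and do not stand for their classes. For each class, the 2 genes whose clusters held the most peaks were taken among those with the promoter inside the cluster and an EZH2 peak on it, in both lists for kept, in WT alone for lost and in KO alone for gained. The sequences are from RefSeq (GRCh38.p14) and run from 250 bases before to 50 bases after the start of the gene, 5′ to 3′ on the strand of the gene. Capitals mark the dinucleotide CG, which reads the same on both strands.
RFX4, chr12:106582754-106583053, + strand: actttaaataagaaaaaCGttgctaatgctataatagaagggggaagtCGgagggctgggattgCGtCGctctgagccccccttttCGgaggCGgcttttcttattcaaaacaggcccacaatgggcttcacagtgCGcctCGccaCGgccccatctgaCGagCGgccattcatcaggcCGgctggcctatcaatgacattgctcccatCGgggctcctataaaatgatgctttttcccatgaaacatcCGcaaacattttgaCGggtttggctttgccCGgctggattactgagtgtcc
SORCS3, chr10:104641040-104641339, + strand: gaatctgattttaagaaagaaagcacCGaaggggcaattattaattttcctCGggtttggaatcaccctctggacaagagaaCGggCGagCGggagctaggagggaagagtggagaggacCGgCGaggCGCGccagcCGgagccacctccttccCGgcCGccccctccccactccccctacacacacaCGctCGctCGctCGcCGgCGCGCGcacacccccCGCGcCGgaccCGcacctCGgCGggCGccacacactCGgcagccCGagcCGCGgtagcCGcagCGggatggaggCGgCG
WEE2, chr7:141708103-141708402, + strand: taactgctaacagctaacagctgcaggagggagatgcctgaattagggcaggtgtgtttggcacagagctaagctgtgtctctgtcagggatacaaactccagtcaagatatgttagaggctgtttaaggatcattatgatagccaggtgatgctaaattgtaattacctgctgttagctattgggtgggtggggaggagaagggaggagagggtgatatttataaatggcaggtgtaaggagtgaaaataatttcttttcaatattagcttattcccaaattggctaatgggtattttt
OR4D2, chr17:58166732-58167031, + strand: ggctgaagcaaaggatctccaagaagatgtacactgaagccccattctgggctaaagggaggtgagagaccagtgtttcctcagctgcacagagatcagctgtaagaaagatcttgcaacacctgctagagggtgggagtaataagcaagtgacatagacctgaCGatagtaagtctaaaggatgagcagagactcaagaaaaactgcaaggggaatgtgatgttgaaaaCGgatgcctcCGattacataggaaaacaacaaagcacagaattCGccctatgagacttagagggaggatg
PNLIP, chr10:116545681-116545980, + strand: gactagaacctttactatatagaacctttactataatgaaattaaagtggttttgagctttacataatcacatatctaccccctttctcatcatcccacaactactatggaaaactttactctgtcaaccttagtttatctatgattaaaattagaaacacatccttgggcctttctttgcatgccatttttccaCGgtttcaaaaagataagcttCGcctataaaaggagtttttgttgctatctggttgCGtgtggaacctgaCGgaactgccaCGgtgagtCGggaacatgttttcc
NPAS1, chr19:47019587-47019886, + strand: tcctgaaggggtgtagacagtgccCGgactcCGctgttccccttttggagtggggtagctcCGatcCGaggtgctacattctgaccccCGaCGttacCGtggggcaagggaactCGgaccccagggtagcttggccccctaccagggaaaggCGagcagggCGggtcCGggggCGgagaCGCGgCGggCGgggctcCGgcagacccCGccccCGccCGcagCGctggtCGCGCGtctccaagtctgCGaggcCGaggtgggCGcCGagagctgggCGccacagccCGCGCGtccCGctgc

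The kept pair is RFX4, a transcription factor gene of the developing brain, and SORCS3, a neuronal sorting receptor gene. Their promoters held 16 and 35 CG, against a median of 22 over the 15812 promoters in the table. The lost pair is WEE2, an oocyte kinase gene, with 0 CG, and OR4D2, an olfactory receptor gene, with 4. Lost is here the class of the gene, and OR4D2 still had a KO EZH2 peak within 5 kb of an end. Its neighbour OR4D1, also with 10 WT peaks in clusters, counts as kept with 8 KO peaks. The gained pair is PNLIP, the pancreatic lipase gene, with 6, and NPAS1, a neuronal transcription factor gene, with 33. As many CG or more were held by 64.0% of all promoters for RFX4, 19.0% for SORCS3 and 23.1% for NPAS1. At the other end, as few or fewer were held by 1.9% for WEE2, 16.6% for OR4D2 and 21.7% for PNLIP. The 6 promoters thus spanned most of the range of CG number, and each of the kept and gained pairs held one above and one below the median. WT peaks covered 199 of the 300 bases at RFX4 and 226 at SORCS3, and KO peaks covered 293 and all 300. At WEE2 and OR4D2 WT peaks covered 270 and 169 bases. At PNLIP and NPAS1 KO peaks covered 142 and 76 bases.

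Direct cover of a promoter was uncommon even at genes with clusters. Among the genes with a promoter in the table, a WT peak overlapped the promoter of 31 of 211 kept genes and a KO peak that of 30, with 12 promoters under peaks of both lists. The numbers were 20 and 2 of 258 lost genes and 3 and 11 of 128 gained genes. Of 15215 genes at no cluster, 34 had a WT peak and 19 a KO peak on the promoter. Since the classes were made from the same peaks, these numbers place the peaks and do not support the classes.

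Isolated and clustered peaks were fewer in KO to about the same degree. The lists held 16298 isolated peaks in WT and 10624 in KO, a KO/WT ratio of 0.652 (0.636 to 0.668). Sparse peaks numbered 7522 and 4301, with a ratio of 0.572 (0.551 to 0.594). Clustered peaks numbered 6912 and 4622, with a ratio of 0.669 (0.644 to 0.694). The intervals of isolated and clustered peaks overlap, and sparse peaks had the lowest ratio. The make-up of the lists was therefore similar, with 53.0% isolated and 22.5% clustered peaks in WT and 54.4% and 23.6% in KO. Isolated peaks made up 50.7% of the net difference in peak number and clustered peaks 20.5%.

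KO peaks were longer and carried lower values of the authors' score. The median length of isolated peaks was 200 bp in WT and 221 bp in KO, and that of clustered peaks 239 and 273 bp. Peaks of 500 bp or more made up 9.92% of clustered WT peaks and 14.6% of clustered KO peaks. The covered length accordingly had higher KO/WT ratios than the peak number, at 0.713 for isolated and 0.757 for clustered peaks. The median score was 7 for isolated and 8 for clustered WT peaks, against 5 and 6 in KO. The submitters' labels do not define the score, and whether a score means the same in both lists was not tested. With peaks below a score of 7 left out of both lists, the ratio was 0.192 for isolated peaks and 0.247 for clusters.

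Clustered peaks overlapped a peak of the other genotype more often than isolated ones. Of isolated WT peaks 1.15% (0.990 to 1.32) overlapped a KO peak, of sparse peaks 3.62%, and of clustered peaks 16.1% (15.3 to 17.0). In the reverse direction 2.38% of isolated, 6.28% of sparse and 22.4% (21.2 to 23.6) of clustered KO peaks overlapped a WT peak. Within 5 kb of a KO peak lay 11.0% of isolated, 24.0% of sparse and 58.8% of clustered WT peaks, a narrower contrast than for direct overlap. Clustered peaks stand in peak-rich places by definition, and how much of this sharing the local density gives was not tested. H3K27me3, which the classes do not use, followed the same order: in WT a peak of the mark overlapped 6.51% of isolated, 15.1% of sparse and 30.3% of clustered EZH2 peaks. In KO the values were 9.07%, 23.3% and 37.9%. The EZH2 and H3K27me3 lists of a genotype share its input library.

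**Figure D1:**
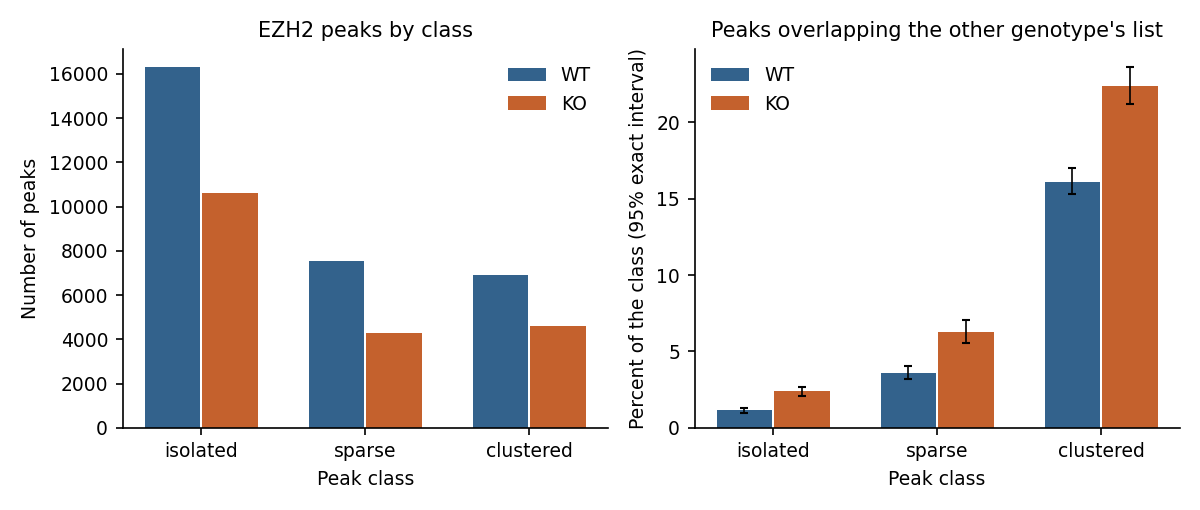
The left panel plots the number of EZH2 peaks that were isolated, sparse or clustered in WT and KO, and the right panel the percent of them that overlapped a peak of the other genotype, with exact 95% intervals. Each class is smaller in KO (10624 against 16298 isolated peaks, 4622 against 6912 clustered), and overlap is highest for clustered peaks (16.1% in WT, 22.4% in KO).

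The lists held 1579 clusters in WT and 990 in KO, a ratio of 0.627 (0.579 to 0.679). Clusters of 5 or more peaks numbered 435 and 339, a ratio of 0.779 (0.674 to 0.900). Clusters of 8 or more numbered 140 and 102 (0.729). The direction of the cluster ratio turned with the length of the lists: with the WT list reduced to its highest-scoring peaks so that it was as long as the KO list, there were 923 WT clusters and the ratio was 1.07 (0.980 to 1.17). At equal list length the number of clusters was thus not lower in KO.

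Most clusters were listed in 1 genotype. Of the WT clusters 419 were kept, or 26.5% (24.4 to 28.8), and 1160 were lost. Of the KO clusters 425, or 42.9% (39.8 to 46.1), met a WT cluster and 565 were gained. Among lost clusters 812 held no KO peak, 275 held 1, 69 held 2 and 4 held 3 or more. Among gained clusters 336 held no WT peak, 162 held 1 and 63 held 2. Lost and gained clusters were alike in size, with a mean of 3.71 and 3.82 peaks and a median span of 7554 and 7533 bp. Kept clusters had a mean of 6.22 WT peaks and a median span of 9529 bp.

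The share of kept clusters was higher the more peaks a cluster had. Of WT clusters with 3 peaks 11.5% were kept, with 4 peaks 23.1%, with 5 to 7 peaks 47.1%, with 8 to 11 peaks 75.0%, and with 12 or more 91.7%, or 33 of 36. KO clusters showed the same order up to 11 peaks, from 23.6% with 3 peaks to 86.3% with 8 to 11, and 86.2% with 12 or more. Larger clusters also span more sequence, which gives more room for overlap, and clusters of equal span were not compared.

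**Figure D2:**
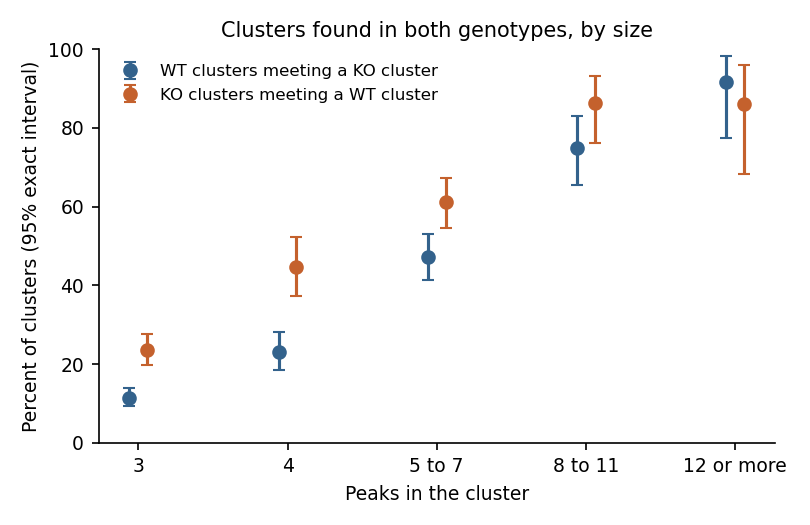
Percent of WT clusters that meet a KO cluster, and of KO clusters that meet a WT cluster, against the number of peaks in the cluster, with exact 95% intervals. In WT the share goes from 11.5% at 3 peaks to 91.7% at 12 or more, and in KO from 23.6% to 86.2%.

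Kept clusters were places of recurrent peaks more than of identical ones. Of the 2606 WT peaks in kept clusters 35.1% overlapped a KO peak, against 4.64% of the 4306 peaks in lost clusters. The class rule itself makes for this contrast, since lost clusters meet no KO cluster and 812 of them held no KO peak. The covered length at kept clusters depended on whose boundaries were used. Within the boundaries of the 419 WT clusters, KO peaks covered 0.712 times the length of WT peaks, with more in KO at 82 of them. Within the boundaries of the 425 KO clusters the ratio was 1.33, with more in KO at 312. The 410 merged spans of the overlapping WT and KO clusters have boundaries that favour neither list. Over them 960657 bp were covered in WT and 947000 bp in KO, a ratio of 0.986, with more in KO at 195. The merged spans thus showed similar cover in both genotypes. They were chosen for having a cluster in both lists, which leaves out places where either list had few peaks. The ratio over the whole list, 0.705, has no such selection. The difference between these ratios therefore does not show that cover was preserved at kept clusters.

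H3K27me3 was present at most clusters of every class. A WT H3K27me3 peak lay in 86.2% of kept, 75.0% of lost and 71.3% of gained clusters, against 14.8% of genome tiles with the median span of a WT cluster. A KO H3K27me3 peak lay in 86.9%, 58.2% and 81.8%, against 11.2% of such tiles. The mean share of a cluster covered by the mark was 17.9% in WT and 15.5% in KO for kept clusters within WT boundaries (16.7% and 15.5% over the merged spans), 12.2% and 7.15% for lost, and 11.4% and 15.5% for gained. At lost clusters the mark covered more in WT, and at gained clusters more in KO. The whole H3K27me3 list was also smaller in KO, with 93091 WT and 69832 KO peaks covering 31.7 and 23.2 Mb. How much of the difference at lost clusters goes with this smaller list was not tested. The shared input of the 2 antibodies means that these are not fully separate measurements.

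Kept clusters lay near a gene end more often than lost or gained ones. Within 5 kb of a protein-coding gene end lay 61.3% of kept, 26.3% of lost and 28.0% of gained clusters. Inside a gene but away from its ends lay 9.31%, 25.3% and 19.6%. Farther than 50 kb from any gene lay 16.2%, 21.9% and 31.0%. Lost clusters thus had the largest share inside a gene away from its ends, and gained clusters the largest share farther than 50 kb from genes. Clusters that overlap a gene near its end count in the first group, so these shares do not give all overlap with genes. Kept WT clusters were also longer, with a median span of 9529 bp against 7554 for lost and 7533 for gained clusters. Clusters of equal span were not compared, and the share of the genome within 5 kb of a gene end was not computed.

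The cluster ratio was lowest on chromosome 7. It held 291 clusters in WT and 79 in KO, a ratio of 0.271, while its isolated peaks had a ratio of 0.516. It held 250 of the lost clusters, or 21.6%, and 9.63% of isolated WT peaks. A difference in DNA copy number of chromosome 7 between the 2 cell populations cannot be told apart from these numbers, since the lists hold no measure of it. Without it 1288 WT and 911 KO clusters were left, a ratio of 0.707. Chromosomes with few clusters gave the other low ratios, 0.333 on X (3 to 1, where isolated peaks had their lowest ratio, 0.363, from 135 to 49), 0.357 on 20 (14 to 5) and 0.500 on 14 (10 to 5), followed by 0.525 on 11 (59 to 31). Chromosomes 18 (8 to 13), 16 (17 to 27) and 19 (5 to 6) had more clusters in KO, with ratios of 1.62, 1.59 and 1.20. Clusters were fewer in KO on 18 chromosomes and more numerous on 4, and isolated peaks were fewer on 22 of 23. Of the 14 chromosomes with at least 20 WT clusters, 8 had a lower ratio for clusters than for isolated peaks.

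**Figure D3:**
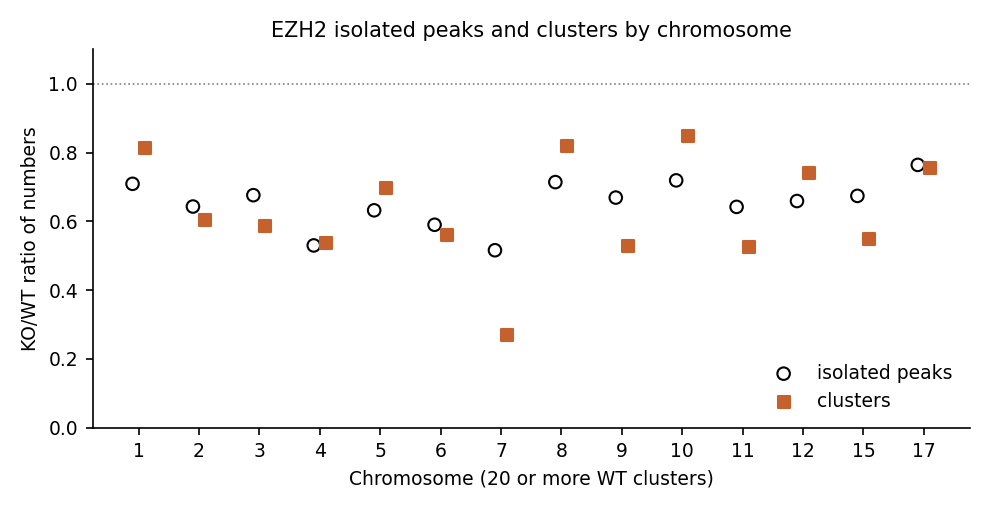
KO/WT ratio of the number of isolated EZH2 peaks (open circles) and of clusters (filled squares) on the 14 chromosomes with 20 or more WT clusters, with a dotted line at 1. Chromosome 7 has the lowest ratio for clusters, 0.271, against 0.516 for its isolated peaks.

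Of 19970 protein-coding genes, 624 lay at a WT cluster (3.12%) and 466 at a KO cluster (2.33%). Clusters of both lists were found at 289 genes (1.45%), of WT alone at 335 (1.68%) and of KO alone at 177 (0.886%). Of the genes at a WT cluster 46.3% (42.3 to 50.3) were also at a KO cluster, and of those at a KO cluster 62.0% were also at a WT cluster. Many of the unshared genes still had peaks in the other list, as 171 of the 335 lost genes had a KO EZH2 peak within 5 kb of an end and 121 of the 177 gained genes a WT peak. A WT H3K27me3 peak lay there at 83.4% of kept, 76.1% of lost and 80.8% of gained genes, against 19.6% of all genes. A KO H3K27me3 peak lay there at 84.4%, 71.6% and 84.7%, against 17.3% of all genes. With peaks below a score of 7 left out, 21 genes were gained. With the WT list reduced to the length of the KO list, 199 genes were lost and 208 gained, so that the excess of lost over gained genes turned.

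Of the kept clusters with a gene, the 8 with the most WT peaks are described first, with both lists counted within the boundaries of the WT cluster. A cluster at HOXC12 and HOXC13, homeobox genes of the posterior body, held 28 WT and 19 KO peaks over 49811 bp (chr12:53913162-53962972). Most of the KO peaks lay on one side of it and no KO cluster reached the window of HOXC13, so that HOXC12 is counted as kept and HOXC13 as lost although 19 KO peaks lay in the WT cluster. At LBX1, which directs migrating limb muscle precursors, 18 and 13 peaks covered 8841 and 8692 bp, nearly the same length. At RFX4 18 and 15 peaks covered 8288 and 5759 bp. At HAND1, a bHLH factor of heart and placenta, there were 17 and 12 peaks.

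A cluster over FEV, a factor of serotonergic neurons, with CRYBA2 and CFAP65, held 16 and 10 peaks. CFAP65 itself counts as a lost gene, since no KO cluster reached its window. CNPY1 had 15 and 10, and PAX7, a factor of muscle stem cells, 14 and 12. At FLI1, which encodes an ETS family factor of blood vessels and blood cells, 19 WT and 9 KO peaks covered 9200 and 4300 bp within WT boundaries, the largest deficit of KO cover measured that way, and 9200 and 5179 bp over the merged span. GRM8, a glutamate receptor gene, had 5450 and 1033 bp and the largest deficit over merged spans. GBX1 with ASB10 had 6734 and 2652 bp, BAALC 4416 and 651 bp, and LHX2, a LIM homeobox gene of forebrain, 10337 and 6817 bp, and the 5 clusters had the 5 largest deficits in both measures. Covered length was higher in KO at NEUROD2 (3265 and 5577 bp), NKX2-3 (3649 and 5599 bp) and LHX5 (4577 and 6459 bp), factors of neurons, gut and spleen, and forebrain, of which LHX5 had 4577 and 7615 bp over its merged span. In all, 2 clusters without a gene within 5 kb completed the 5 largest excesses within WT boundaries, chr12:53779619-53816629 (2551 and 4750 bp) and chr2:92561039-92577086 (1101 and 2981 bp). Unlike the deficits, these 5 were not the largest excesses over the 410 merged spans. There the spans at LHX5, NKX2-3 and NEUROD2 ranked 10, 13 and 19, and those holding the chr12 and chr2 clusters 14 and 9.

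The largest lost clusters with a gene were smaller, and 4 of the 8 lay on chromosome 7. At WEE2 12 WT peaks stood against 0 in KO, with 12 WT and 9 KO H3K27me3 peaks in the same stretch (chr7:141707961-141727725). TMEM229A had 10 and 0 EZH2 peaks, CTTNBP2, a cortactin-binding neuronal gene, 9 and 2, and PTPRZ1, a receptor phosphatase of the nervous system, 9 and 1. Off chromosome 7, SLC7A14 had 10 and 0, ZNF385B 9 and 0, and the forkhead genes FOXB1 and FOXB2 10 and 2 each. H3K27me3 did not move with EZH2 alike at all of them, with 11 WT and 4 KO peaks at SLC7A14, 6 and 1 at ZNF385B, and 6 and 7 at FOXB1. The largest lost clusters without a gene were chr7:39814108-39837606 (12 and 2 EZH2 peaks), chr2:92821310-92850995 (12 and 4) and chr2:105130832-105153527 (11 and 2).

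The largest gained cluster with a gene lay at POU3F3, a POU factor of brain and kidney tubule development, with 0 WT and 20 KO peaks covering 45.1% of 31689 bp (chr2:104841330-104873018). H3K27me3 had 0 WT and 12 KO peaks there, so that neither antibody had a WT peak over the whole stretch. The next gained clusters were smaller. DHRS9, a retinol dehydrogenase gene, had 2 and 10 EZH2 peaks, CAMK1G, a calcium-dependent kinase gene, 2 and 8, and SUSD4, a complement regulator gene, 2 and 7. The clusters at C12orf54 and at GRIP2, a scaffold of glutamate receptors, had 0 and 7 each, RIC3, a chaperone of acetylcholine receptors, 1 and 6, and a cluster at KCNA5, a potassium channel gene, 1 and 7. KCNA5 and C12orf54 themselves count as kept genes, since other WT clusters, with 4 and 3 peaks, reach their windows. H3K27me3 peaks were also more numerous in KO at DHRS9 (11 and 20), CAMK1G (7 and 11) and KCNA5 (6 and 12), but not at C12orf54 (12 and 11).

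**Figure D4:**
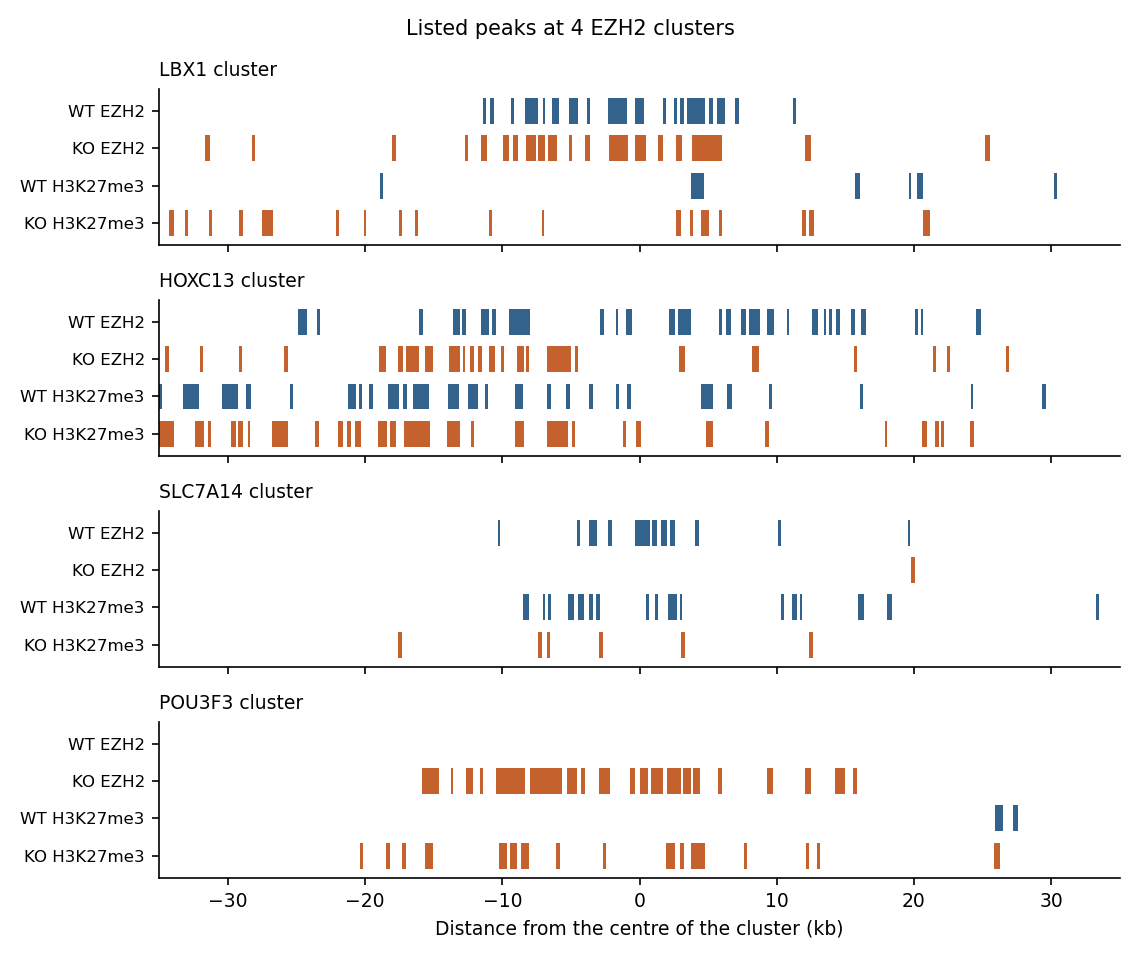
Listed EZH2 and H3K27me3 peaks of WT and KO against the distance in kb from the centre of 4 clusters, each bar being a peak drawn to scale. The LBX1 cluster holds 18 WT and 13 KO EZH2 peaks, the HOXC13 cluster 28 and 19, the SLC7A14 cluster 10 and 0, and the POU3F3 cluster 0 and 20.

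Some gained clusters stood apart by score. In the KO list 19 clusters held a peak with a score of 50 or more, up to 891, and 17 of them were gained, 15 with no WT peak. Of the 19, 16 had no protein-coding gene and 14 lay over 100 kb from one. They include the gained clusters without a gene at chr4:49097152-49154940, with 31 KO peaks, and chr16:34571612-34595789, with 12 peaks of median score 318.5. H3K27me3 was sparse at both, with 0 WT and 2 KO peaks each. In WT 3 clusters held such a peak, none of them lost, with a highest score of 85. Another large gained cluster without a gene by the window rule, chr12:112767824-112789667 inside RPH3A, had 1 and 12 EZH2 peaks and no score above 8. Without peaks of score 50 or more, a setting chosen after these values were seen, the cluster ratio was 0.619 and 175 genes were gained. The largest kept clusters without a gene lay at chr2:92471844-92528077 (21 and 14 peaks), chr2:92349257-92382771 (16 and 8) and chr2:94267827-94292876 (15 and 6). No source used here says how reads that match more than 1 place were handled.

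Genes of developmental transcription factors were frequent at clusters of both lists. The 5 lists of such factors together held 308 genes, of which 82 lay at a WT cluster (26.6%, against 3.12% of all genes) and 65 at a KO cluster (21.1%, against 2.33%). Of the 82, 55 were also at a KO cluster, or 67.1% (55.8 to 77.1), against 43.2% (39.0 to 47.5) of the 542 other genes at a WT cluster. Genes at clusters of equal size were not compared. Gained members numbered 10, and the lost members 27. Of the 27, 0 lay on chromosome 7, against 44 of all 335 lost genes (13.1%).

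The lists differed in how many members were kept. For list members, pairs of numbers count WT and KO peaks in the clusters at the window of the gene, summed over those clusters. A 0 means that no cluster of that list reached the window, and other peaks may still lie there. The list of NK-like and other ANTP homeobox genes outside HOX held 61 genes, among them LHX2, which is a LIM homeobox gene. Of the 61, 22 were kept, LHX2 included, 5 lost and 1 gained. LBX1 had 18 WT and 16 KO peaks in the clusters at its window, DLX4, a gene of craniofacial development, 12 and 11, and LHX2 12 and 7. The lost members included HMX2, of the inner ear (10 and 0), VAX2, of the ventral eye (8 and 0), and NKX1-2 (7 and 0), and the gained one was BARHL2 (0 and 3). HMX3, the neighbour of HMX2, also had 10 WT peaks in clusters and was kept with 6 KO peaks. A gene can count as lost where its WT cluster is kept, if no KO cluster reaches its window. Of 61 paired, LIM, sine oculis, IRX and POU genes, 11 were kept, among them PAX7 (14 and 13), LHX5 (13 and 19) and POU3F2 (12 and 6). In that list 5 were lost, among them ALX4 (7 and 0), and 3 gained, POU3F3, LHX9 (0 and 5) and IRX5 (0 and 4).

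Forkhead, SOX, T-box, GATA and zinc finger genes had 16 kept, 6 lost and 3 gained of 96. FEZF1, of forebrain neurons, had 13 and 10 peaks, GATA3, of T cells and kidney ducts, 11 and 6, and PRDM13, of spinal cord, 11 and 4. FOXB1, FOXB2 and PRDM6 (9 and 0) led the lost members. The gained members were FOXN4 (0 and 4), SOX2 and SALL1 (0 and 3 each), the last 2 being factors of stem cells and of kidney progenitors.

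Of 51 developmental bHLH genes, 5 were kept, 8 lost and 3 gained. The kept share of those at a WT cluster was 38.5%, near the 46.3% of all genes at a WT cluster. HAND1 (17 and 14), NEUROD2 (8 and 6) and SIM1 (7 and 7) led the kept members, HES3 (5 and 0) and TAL1 and NEUROG3 (4 and 0 each) the lost ones. The gained members included BHLHE22 and NEUROD4, factors of neurons (0 and 3 each). Of 39 HOX genes 1 was kept (HOXC12), 3 were lost (HOXC13, and HOXD12 and HOXD13 with 5 and 0 peaks) and 35 had no cluster. The HOX shares at a WT and a KO cluster were 10.3% and 2.56%, against 3.12% and 2.33% of all genes.

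Of 89 genes for signalling ligands, receptors and inhibitors, 10 were kept, 7 lost and 3 gained. A WT cluster lay at 19.1% of them and a KO cluster at 14.6%, against 3.12% and 2.33% of all genes. WIF1, a secreted WNT inhibitor, had 22 and 10 peaks, and the neighbours WNT1 and WNT10B shared clusters with 11 and 4. WNT8B (7 and 0), BMP2 (5 and 0) and WNT2 (4 and 0) were lost, and WNT6 and its neighbour WNT10A, with the WNT inhibitor SFRP5, were gained (0 and 3 each). WNT ligands thus stood in all 3 classes.

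Of 110 neuronal channel, receptor, synapse and guidance genes, 9 were kept, 6 lost and 3 gained. A WT cluster lay at 13.6% of them and a KO cluster at 10.9%, against 3.12% and 2.33% of all genes. KCNA1, a potassium channel gene, had 12 WT and 18 KO peaks, GRM8 11 and 4, and KCNK12 9 and 6. KCNA2 (7 and 0), GAD2 and HTR7 (6 and 0 each) were lost. SYT2, a calcium sensor of synaptic vesicles, was gained with 0 WT and 12 KO peaks in clusters, although a WT peak lay within 5 kb of an end. KCNS2 was gained with 0 and 5, and POMC with 0 and 4.

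The line comes from kidney, and of 60 kidney development and tubule genes 5 were kept, 4 lost and 4 gained. The share at a cluster was 15.0% in WT and 15.0% in KO, against 3.12% and 2.33% of all genes. GATA3, EMX1 (10 and 9) and LRP2, the endocytic receptor of the proximal tubule (10 and 7), led the kept ones. SLC26A4, an anion exchanger gene on chromosome 7, had 14 WT and 0 KO peaks in clusters, the most of any lost member of this list. TCF21, WNT9B and CITED1 had 3 and 0 each. POU3F3 led the gained ones, followed by PODXL, a podocyte surface protein gene, SCNN1B, a sodium channel subunit gene, and SALL1, with 0 and 3 each.

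Of 39 cell cycle and tumour suppressor genes, CCND2, which encodes cyclin D2, was kept with 6 WT and 13 KO peaks, WIF1 was kept, UNC5C was lost (3 and 0) and none was gained. The shares at a WT and a KO cluster were 7.69% and 5.13%, against 3.12% and 2.33% of all genes. Blood and immune genes had 5 kept, 3 lost and 1 gained of 32. Of the 32, 8 lay at a WT cluster and 6 at a KO cluster (18.8%), against 3.12% and 2.33% of all genes. The kept ones included FLI1 (19 and 11), CR2, a complement receptor (14 and 5), PAX5 (7 and 11) and LMO2 (7 and 4). CD34 (6 and 0) was among the lost ones, and the gained one was IKZF3 (0 and 3). Muscle, heart and endothelial genes had 5 kept and 1 lost of 32 (18.8% at a WT and 15.6% at a KO cluster), the lost one being HAND2 (3 and 0). Among 35 Polycomb subunit genes CBX8 was kept (7 and 3) and 2 were lost, among them BMI1 (3 and 0). That is 8.57% at a WT cluster and 2.86% at a KO cluster, the latter near the share of all genes. EZH2, SUZ12, EED and ZCCHC8 had no EZH2 peak around their ends in either EZH2 list, and 0 of the 24 NEXT, PAXT and exosome genes lay at a cluster, which at 24 genes cannot be set apart from the shares over all genes (3.12% in WT, 2.33% in KO). Of 38 housekeeping genes PSMA1 was gained (0 and 3), a share of 2.63% at a KO cluster, near that of all genes.

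Genes of recent segmental duplications, 111 in all, had 4 kept, 5 lost and 5 gained members. The share at a cluster was 8.11% in WT and 8.11% in KO, against 3.12% and 2.33% of all genes. RGPD5 had 12 and 16 peaks and PPIAL4D 8 and 4. The near-identical defensin copies DEFB103A and DEFB103B fell into different classes, with 3 and 0 peaks and with 0 and 4. Peaks at such copies cannot be assigned to 1 copy with certainty.

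**Figure D5:**
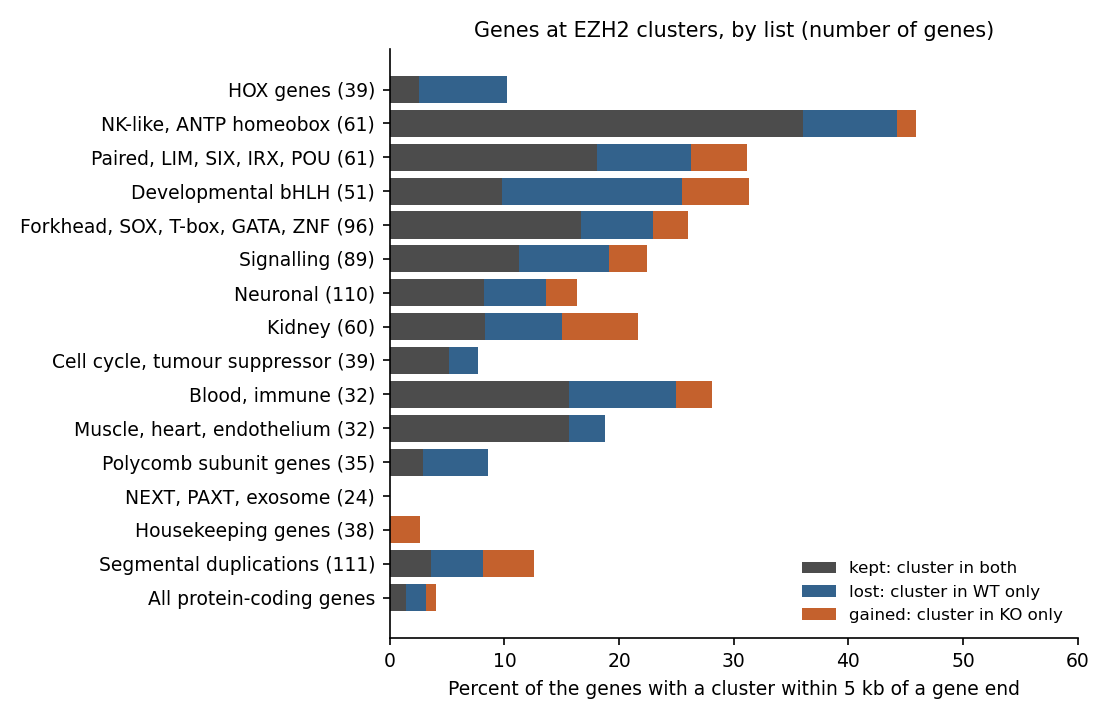
Percent of the genes of each list with an EZH2 cluster within 5 kb of a gene end, split into kept, lost and gained, with the number of genes in each list. The list of NK-like and ANTP homeobox genes, which includes the LIM gene LHX2, has the highest share, with 22 kept, 5 lost and 1 gained of 61. NEXT, PAXT and exosome genes have none.

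MicroRNA hairpins inside clusters were looked up after the values above were seen. Of 1558 hairpins in the RefSeq table (GRCh38.p14), 15 lay in a cluster, 5 in clusters of both lists, 9 in a WT cluster alone and 1 in a KO cluster alone. MIR7-2 in WT and MIR3131 in KO are among the latter 2 groups, although their clusters meet a cluster of the other list. WT had more clusters in all (1579 and 990), and the share of the genome inside clusters was not computed. These counts are therefore no result about microRNAs. Mature sequences are shown for both miR-9 loci and MIR1179, which lay in clusters of both lists, and for the pair of hairpins in the lost clusters with the most peaks. Capitals mark the seed, bases 2 to 8, which pairs with target RNAs.
hsa-miR-9-5p: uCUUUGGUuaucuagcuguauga
hsa-miR-9-3p: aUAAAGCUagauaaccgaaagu
hsa-miR-1179: aAGCAUUCuuucauugguugg
hsa-miR-1258: aGUUAGGAuuaggucguggaa
hsa-miR-3663-5p: gCUGGUCUgcguggugcucgg
hsa-miR-3663-3p: uGAGCACCacacaggccgggcgc

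The neuronal microRNA miR-9 came from 2 of the hairpins in clusters of both lists, MIR9-1 and MIR9-3, which give the same mature sequences and seeds. MIR9-1 on chromosome 1 lay in a WT cluster of 14 peaks and a KO cluster of 21 peaks, and within the span of the WT cluster peaks covered 6407 bp in WT and 6997 bp in KO. MIR9-3 on chromosome 15 lay in clusters of 3 peaks in each list. MIR1179 lay in clusters of 6 WT and 3 KO peaks, and its neighbour MIR7-2 in the WT cluster alone. The overlapping hairpins MIR4520-1 and MIR4520-2 lay in clusters of 5 peaks in each list. MIR1258, inside the ZNF385B cluster, and MIR3663 were in WT clusters of 9 and 8 peaks and in no KO cluster. The shown sequences carry 6 different seeds, so that no seed is shared between the miR-9 arms and the hairpins at lost clusters. Peak lists hold no microRNA levels.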

How the data were processed

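Peak lists of chromatin immunoprecipitation libraries of ACHN cells were used, for EZH2 (2 lists) and H3K27me3 (2 lists), in ZCCHC8-WT and ZCCHC8-KO, grouped by the genotype and title labels, with 1 library per group and no replicates. Per the submitters' processing notes, the tools were cutadapt 1.9.3, a read trimmer, and Bowtie2 2.2.4, an aligner, and the build was hg38. For the peak caller and read depth: not given in the sources used here. The deposited lists have 6 columns and no header: position, name, peak length in bp (equal to end minus start plus 1, so positions were read as 1-based) and the authors' score, which no label defines. Scores were used only to describe or filter peaks. Peak names include the p threshold, 1e-3.

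Identical lines were counted once, which took the WT EZH2 list from 71635 to 30734 lines and the KO list from 41215 to 19566; a peak stood on up to 76 and 58 lines. Of these, 2 and 19 peaks on other chromosomes were left out. Clusters, overlaps (at least 1 bp) and genes at clusters were computed in Python 3.11.15 (pandas 2.3.3, SciPy 1.17.1, NumPy 2.4.6; matplotlib 3.10.9 for figures). Genes came from a RefSeq table (GRCh38.p14, the same assembly as hg38) of 19970 protein-coding genes. No test was made.

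The members, the 15 gene lists and the settings were chosen with earlier results of these data known. The rule for named genes took the 8 kept, lost and gained clusters with the most peaks that had a gene, the 3 such without one, the 5 largest deficits and excesses of covered length in kept clusters, up to 3 members of each list and class (some tied members are not printed), EZH2, SUZ12, EED and ZCCHC8, and the 5 chromosomes with the lowest and highest ratios. Promoter composition was not compared between classes, because 73.0% of kept, 77.0% of lost and 72.3% of gained genes had a promoter in the table, under the 80% required. Of the 25 NEXT, PAXT and exosome symbols 24 were in the table. The routines were tested on simulated data for KO against WT clusters among 19970 genes: 200 of 200 genes stripped of peaks were called lost and 200 of 200 planted clusters were called gained.

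Alternatives changed the span and size of clusters, the score, the length of the WT list, the overlap, the gene window, the cluster boundaries and chromosome 7.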

Additional observations from a re-analysis of the deposited data

How the results depend on the processing

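Of 41 values under alternative settings, 20 were close to the reported one, 19 moved and 2 reversed direction. The score and the list length moved the ratios most, and neither shows whether depth or EZH2 differs. With scores of 7 or more in both lists, the KO/WT ratio was 0.192 for isolated peaks and 0.247 for clusters, 17.6% of WT clusters were kept and 21 genes were gained. With the WT list reduced by score to the size of the KO list, the ratios were 0.968 and 1.07 (reversed), 36.4% were kept, and 199 genes were lost against 208 gained, where 335 and 177 were reported. With 5 or more peaks within 10 kb required for a cluster, the cluster ratio was 0.739, 36.0% were kept, and 145 genes were lost and 62 gained. Without chromosome 7 the cluster ratio was 0.707 and 29.3% were kept. Requiring KO clusters to cover 50% of the WT cluster gave 18.5% kept, and accepting any KO peak in it gave 48.4%. A span of 20 kb gave 547 lost genes. Counting only 5 kb around the gene start, for the 15812 of 19970 genes with a start in the promoter table, gave 206 lost and 93 gained genes. Leaving out peaks with a score of 50 or more, chosen after seeing the data, moved none of the 5 results it was run on. The KO/WT ratio of covered length in kept clusters, 0.712 within WT boundaries, was 1.33 (reversed) within KO boundaries and 0.986 over merged spans, both also added after seeing the data. Leaving out a replicate was not possible with 1 library per group. No paired analysis was possible because each genotype has 1 EZH2 library and no result comes from a test.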

Other observations

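Some clusters without a protein-coding gene reached a long non-coding RNA gene, described here after the values were seen. Of such clusters, 34 of 162 kept, 181 of 855 lost and 76 of 407 gained ones lay at an annotated lncRNA gene, or 21.0%, 21.2% and 18.7%, so the classes had similar shares, and the share over regions without a cluster was not computed. Among kept clusters, MIR9-1HG, the host gene of a miR-9 hairpin, had 14 WT and 19 KO peaks, CACNA1C-IT2 had 9 and 7, and MSANTD2-AS1 had 9 and 7 with more covered length in KO (3209 and 4335 bp). Among lost ones, LINC01918 had 11 and 2 peaks and MIR3663HG 8 and 2. Among gained ones, LINC01735 had 1 and 8, with 0 WT and 9 KO H3K27me3 peaks, and a second cluster at MIR9-3HG had 2 and 7.

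The balance of kept, lost and gained clusters differed between stretches of chromosomes. The stretches named here are examples, and an uneven spread was not tested. Lost clusters prevailed on chromosome 7 as a whole, which held 41 kept, 250 lost and 36 gained clusters. In bins of 5 Mb, 3 stretches of chromosome 7, from 35 to 40, 95 to 100 and 120 to 125 Mb, each held 1 kept cluster against 21, 19 and 19 lost ones. Isolated peaks were also fewer there in KO, with 68 and 45, 41 and 27, and 72 and 20 in WT and KO. The stretch of chromosome 7 from 25 to 30 Mb held 8 kept, 20 lost and 10 gained clusters. The first 5 Mb of chromosome 12 held 8 kept, 13 lost and 21 gained clusters, with 34 isolated WT and 42 isolated KO peaks. Chromosome 10 from 75 to 80 Mb held 1 kept, 5 lost and 10 gained clusters, with 58 and 37 isolated peaks. The stretch of chromosome 2 from 90 to 95 Mb held 23 kept clusters with 12 lost and 12 gained.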
